A study of Rattus norvegicus with 14 samples.

Results

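Alas2, Fech, Rhag, Slc4a1, Epb42, Hbb and Klf1 are genes of the red cell lineage that serve heme synthesis, the cell membrane, hemoglobin and their transcription. They were taken as a fixed list of symbols, and every probe set (a group of short probes that together measure one transcript) annotated with 1 of these symbols alone was kept. The list came to 7 genes and 8 probe sets, of 14217 genes with a symbol of their own and 31042 probe sets on the rat array. Slc4a1 had 2 probe sets, and the brighter stood for the gene in counts. All 8 probe sets passed the filter on dim signals described with the methods, and so did 18515 probe sets of 10107 genes in all.

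The samples were peripheral blood mononuclear cells (PBMC), the lymphocytes and monocytes that collect on top of a Ficoll density gradient, from female Wistar rats whose age is not given in the sources used here. Transcript levels were measured on 14 arrays, each with total RNA of 1 sample. NORA (3 arrays) were healthy rats and RA (2 arrays) were rats with arthritis raised by bovine type II collagen in Freund's adjuvant, and both were sampled before any therapy. HAP (3 arrays) were healthy rats after 34 days of acupuncture, in which a needle was inserted and twirled at points of the lower back and hind leg. AP (3 arrays) were arthritic rats after 34 days of the same stimulation, and MTXAP (3 arrays) were arthritic rats after 34 days of acupuncture together with weekly methotrexate, an antifolate drug given against rheumatoid arthritis. None of these groups was left without stimulation for 34 days, so time and therapy cannot be told apart in any comparison of a treated with an untreated group. Blood was drawn when the animals were killed, and p-values measure the spread between these arrays only.

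Red cells build hemoglobin from globin chains and heme, and they do so mostly before and shortly after they lose their nucleus. Reticulocytes, the youngest cells in the circulation, still carry that RNA, while mature red cells carry little. Most red cells sink through the gradient used to prepare PBMC. Alas2 encodes the erythroid form of the enzyme that starts heme synthesis, and Fech encodes ferrochelatase, which inserts iron in its last step. Slc4a1 encodes band 3, the anion exchanger that anchors the membrane skeleton, Epb42 encodes protein 4.2, which binds band 3, and Rhag encodes the glycoprotein that forms the Rh complex with the Rh blood group proteins. Hbb encodes the beta chain of hemoglobin, and Klf1 is a transcription factor that binds CACCC boxes in erythroid promoters, often near sites of GATA1.

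The sequences before the annotated starts of 4 of these genes are shown because GATA and CACCC motifs are textbook features of erythroid promoters. Alas2 and Klf1 stand for the genes that varied together over the arrays, and Rhag and Hbb for those that were ordered differently. RefSeq promoter windows on the GRCr8 build were found for 6 of the 7 genes. Each line gives the 250 bases before the start, in the direction of transcription. Capitals mark a GATA hexamer, which is AGATAA with its variant AGATAG or else TGATAA with its variant TGATAG, and the CACCC pentamer. Both strands were searched, so that in Klf1 and Rhag the letters TTATCA are the hexamer, and in Rhag the letters GGGTG are the pentamer, on the opposite strand. The motifs share no bases in these windows.
Alas2, chrX:22895200-22895449, plus strand: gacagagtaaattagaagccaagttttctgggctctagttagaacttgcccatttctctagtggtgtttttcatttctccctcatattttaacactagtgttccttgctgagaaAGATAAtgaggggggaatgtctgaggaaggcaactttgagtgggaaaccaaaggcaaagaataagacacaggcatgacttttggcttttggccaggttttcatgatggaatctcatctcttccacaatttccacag
Klf1, chr19:40158652-40158901, minus strand: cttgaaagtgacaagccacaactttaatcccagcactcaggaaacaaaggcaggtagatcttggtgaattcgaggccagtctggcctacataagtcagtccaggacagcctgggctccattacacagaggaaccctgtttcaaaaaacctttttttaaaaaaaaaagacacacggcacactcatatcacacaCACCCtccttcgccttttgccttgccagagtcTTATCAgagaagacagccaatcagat
Rhag, chr9:27594391-27594640, minus strand: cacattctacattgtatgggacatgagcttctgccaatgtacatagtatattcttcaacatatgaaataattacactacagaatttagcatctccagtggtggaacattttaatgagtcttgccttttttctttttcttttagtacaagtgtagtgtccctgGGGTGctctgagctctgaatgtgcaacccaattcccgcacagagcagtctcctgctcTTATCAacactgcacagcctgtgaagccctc
Hbb, chr1:167663722-167663971, minus strand: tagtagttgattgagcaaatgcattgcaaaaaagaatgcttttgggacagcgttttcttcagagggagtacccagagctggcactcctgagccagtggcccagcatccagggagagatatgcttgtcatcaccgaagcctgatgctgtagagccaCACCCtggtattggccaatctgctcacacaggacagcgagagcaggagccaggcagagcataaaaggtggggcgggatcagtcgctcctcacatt
The GATA hexamer lay in 5 of the 6 windows, against 27.0% of all 33469 windows of that length, and CACCC in 3 of them, against 49.2%. The start of the hexamer lay 135 bases before Fech, 82 before Epb42, 31 before Rhag and 26 before Klf1. For Alas2 it lay 136 bases before the annotated start used, which is inside the span of the gene and not at its first base. CACCC lay 95 bases before Hbb, 88 before Rhag and 58 before Klf1. Rhag and Klf1 held both, as 11.2% of all windows did. These are matches of letters in a window, not sites shown to be bound.

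The genes themselves lie on 7 chromosomes of that build. Alas2 spans chrX:22890650-22914046, and its window falls inside that span because the annotated start used for it does. Fech spans chr18:60215325-60248525, Rhag chr9:27566349-27594390 and Slc4a1 chr10:87807010-87823274. Epb42 spans chr3:128433460-128451683, Hbb chr1:167662310-167663721 and Klf1 chr19:40155476-40158651.

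A pair of arrays stood apart over all tested probe sets. Averaged over its pairs with the remaining arrays, r was 0.86 for NORA replicate 3, 0.88 for MTXAP replicate 3 and 0.91 to 0.93 for the other 12 arrays. NORA replicate 3 also had the brightest hybridisation controls, 1.96 times the median array, and the highest array median signal, 149 against 104 to 131. MTXAP replicate 3 had the highest ratio of 3′ to 5′ beta-actin signal, 5.01 against 1.97 to 4.36, a ratio that rises as RNA is degraded. The same ratio for GAPDH was not raised there, at 1.12 against 0.95 to 1.18 on the other arrays. The part of these differences in the results was not tested, so in each comparison they enter the median of the 7 genes is given with and without the 2 arrays. The median fold change over all tested probe sets lay between -0.11 and 0.09 on the log2 scale in every comparison. Centring each array on its median instead moved it by 0.22 for RA minus NORA, by -0.13 for AP minus RA and by -0.15 for MTXAP minus RA.

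MTXAP replicate 3 was the lowest array for all 7 genes and NORA replicate 3 was the highest for all 7. The values that follow are log2 signals of each array in replicate order, and levels of different probe sets are not set against each other. Alas2 read 14.37, 13.09 and 16.14 in NORA, 12.60 and 14.38 in RA, 13.47, 14.33 and 14.09 in HAP, 14.37, 14.73 and 12.43 in AP, and 14.33, 14.47 and 5.64 in MTXAP. The last value fell under the median signal of its array, so the signal of the rate-limiting enzyme of erythroid heme synthesis was near the floor on 1 array and far above the median on the other 13. Fech, the closing enzyme, read 14.39, 13.67 and 15.95 in NORA, 12.23 and 14.27 in RA, 13.17, 14.19 and 14.05 in HAP, 14.28, 14.60 and 12.89 in AP, and 14.29, 14.66 and 7.69 in MTXAP. Its ups and downs were those of Alas2, with r of 0.99 between the 2 genes over 14 arrays and 0.93 over the 12 arrays without the 2 that stood apart.

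Band 3 and its partner varied in much the same way. Slc4a1 read 12.74, 12.26 and 15.37 in NORA, 11.13 and 13.31 in RA, 12.36, 13.46 and 12.99 in HAP, 13.07, 14.05 and 11.88 in AP, and 13.61, 14.29 and 4.74 in MTXAP. Its second, dimmer probe set had r of 0.93 with it over 14 arrays and 0.97 over 12. Epb42 read 9.69, 8.83 and 12.24 in NORA, 8.41 and 9.53 in RA, 8.73, 9.72 and 9.65 in HAP, 9.79, 10.33 and 8.28 in AP, and 10.42, 11.01 and 2.02 in MTXAP. Both genes were also low in RA replicate 1 and AP replicate 3, the same arrays on which Alas2 and Fech were low within their groups.

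Klf1, the transcription factor of the list, read 9.18, 8.16 and 11.45 in NORA, 7.35 and 9.12 in RA, 9.0, 8.80 and 8.73 in HAP, 9.28, 9.58 and 7.96 in AP, and 9.82, 9.11 and 5.09 in MTXAP. Alas2, Slc4a1, Epb42 and Klf1 were the 4 genes under the array median on MTXAP replicate 3, and no gene of the list was under it on any other array. At such signals the size of a drop depends on how background was handled, so these drops say that the signal was near the floor rather than how far it fell.

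Hbb differed from these 5 genes in how little it varied. It read 15.36, 14.89 and 16 in NORA, 15.24 and 15.12 in RA, 15.62, 15.45 and 15.25 in HAP, 14.90, 15.11 and 14.93 in AP, and 15.14, 15.41 and 11.09 in MTXAP. Over the 12 arrays without the 2 that stood apart its signals spanned 0.72 on the log2 scale, while those of the other 6 genes spanned 2.31 to 3.16. Its r with Alas2 was 0.95 over 14 arrays and 0.22 over those 12. This probe set is of a type whose probes can also match near-identical globins, and it lies at the top of the signal scale, where large differences in RNA can give small differences in signal. Whether either accounts for the narrow span was not tested.

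Rhag, the Rh-associated glycoprotein, was ordered differently over the arrays. It read 8.18, 10.003 and 10.53 in NORA, 7.70 and 7.98 in RA, 8.47, 7.89 and 8.03 in HAP, 8.80, 9.73 and 9.62 in AP, and 8.51, 9.30 and 7.43 in MTXAP. It stayed above the array median on all 14 arrays, including the MTXAP array on which most of the list was near the floor, as did Fech and Hbb. On that array Rhag lay 0.69 above the median on the log2 scale, against 0.95 for Fech and 4.36 for Hbb. Rhag was dim in RA too, at 0.99 and 1.19 above the array median. AP replicate 3, low for Alas2, Fech, Slc4a1, Epb42 and Klf1, was high for Rhag, and so was NORA replicate 2. Its r with Alas2 was 0.46 over 14 arrays and -0.13 over 12.

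**Figure D1:**
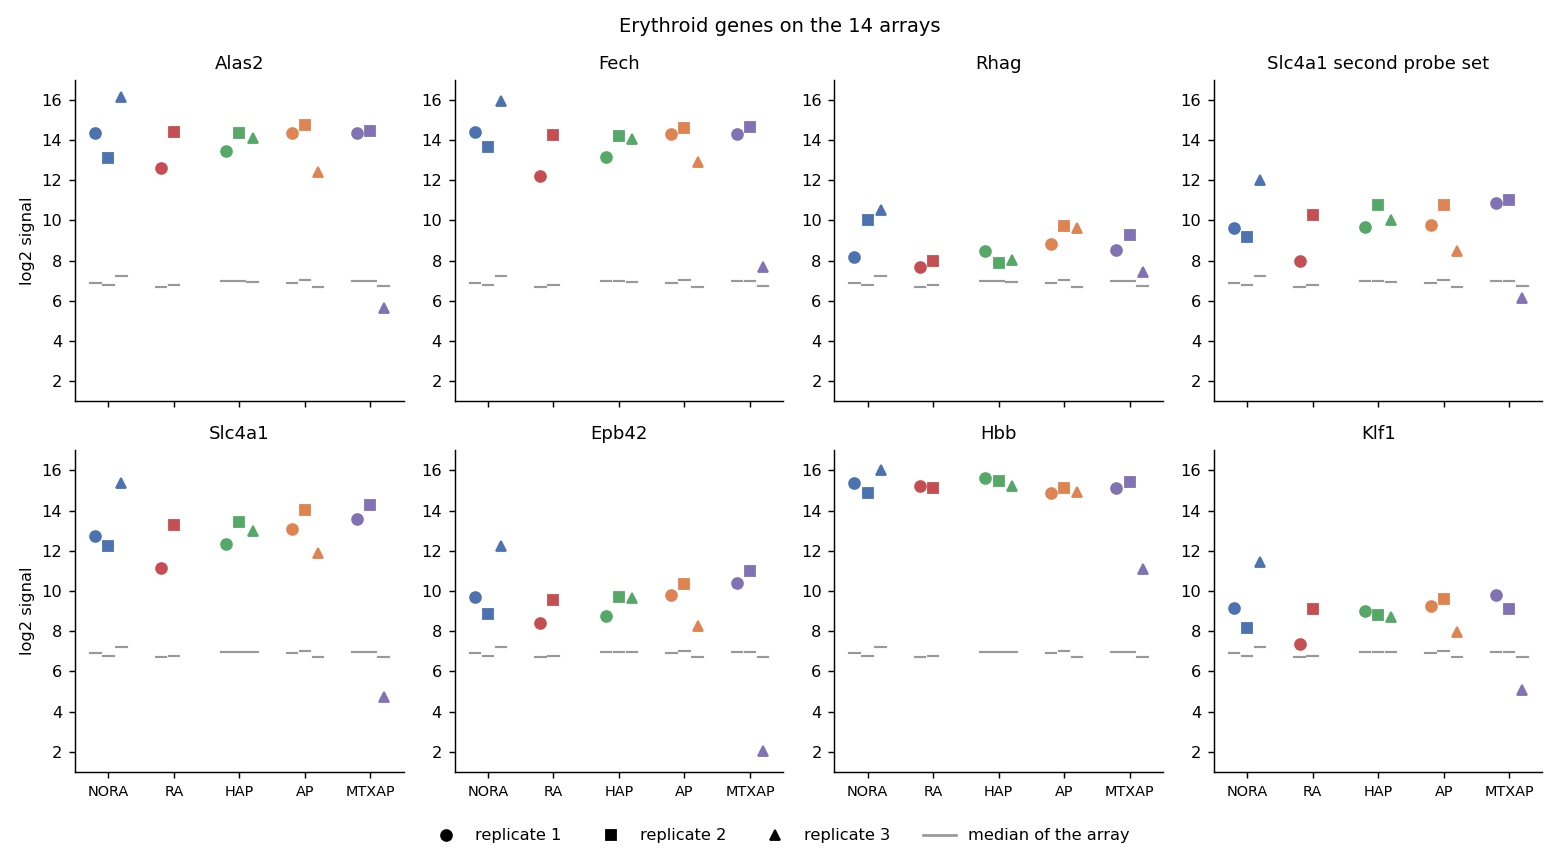
Log2 signal of the 8 probe sets on each of the 14 arrays, by group on the horizontal axis; marker shape gives the replicate number and grey ticks the median signal of each array. The third MTXAP array is lowest and the third NORA array highest for all 7 genes, Hbb is nearly level on the other 12 arrays, and Rhag is ordered differently from the rest.

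The drop on MTXAP replicate 3 ran through the red cell genes unevenly. Set against the mean of the other two arrays of its group, the 7 genes differed by a median of -6.79 on the log2 scale, from -9.21 for Slc4a1 to -1.48 for Rhag. In the list of the other globins and their chaperone all 4 measured genes were lower, by a median of -6.14, and Ahsp, which encodes the chaperone of free alpha globin, read 3.26 there against a mean of 12.36. Hba-a3, an alpha globin, read 8.44 against a mean of 15.28. Of 10 further genes of the red cell membrane and skeleton 9 were lower, by a median of -2.81, among them Rhd, the Rh blood group protein, at 6.44 against a mean of 12.46. Gypc, which encodes glycophorin C and is also made by white cells, was the exception. Of 12 reticulocyte and late erythroid genes 11 were lower, by a median of -3.03. The exception was Tfrc, the transferrin receptor, which dividing lymphocytes also use. Of 10 genes of erythroid transcription 8 were lower, by a median of -1.63, and Hemgn was lowest among them, at 3.07. The other 9 genes of heme synthesis and its transport, most of which every nucleated cell uses, differed by a median of -0.79. Tfrc was picked for mention after its values had been seen.

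White cell and platelet markers had medians on that array nearer 0 than the 7 genes had, though not all nearer than the heme synthesis list. The 7 T cell markers differed by a median of -0.23, the 6 monocyte markers by -0.26, the 7 neutrophil markers by -0.34 and the 3 B cell markers by 1.32. Single markers differed by more. Lcn2 and Camp, antimicrobial granule proteins of neutrophils, differed by -3.62 and -3.31 and were chosen for mention after their values had been seen, and Lcn2 was lower still on NORA replicate 2. Cd14, the monocyte receptor for endotoxin, differed by 1.98. All 10 platelet markers were lower, by a median of -0.94, and none was under the array median. In these mixed samples fewer cells of a type and less RNA per cell cannot be told apart. On NORA replicate 3 the 7 genes were higher than the mean of the other two NORA arrays by a median of 2.41, the platelet markers by 1.25 and the neutrophil markers by 1.16, while the T cell markers differed by -0.15.

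**Figure D2:**
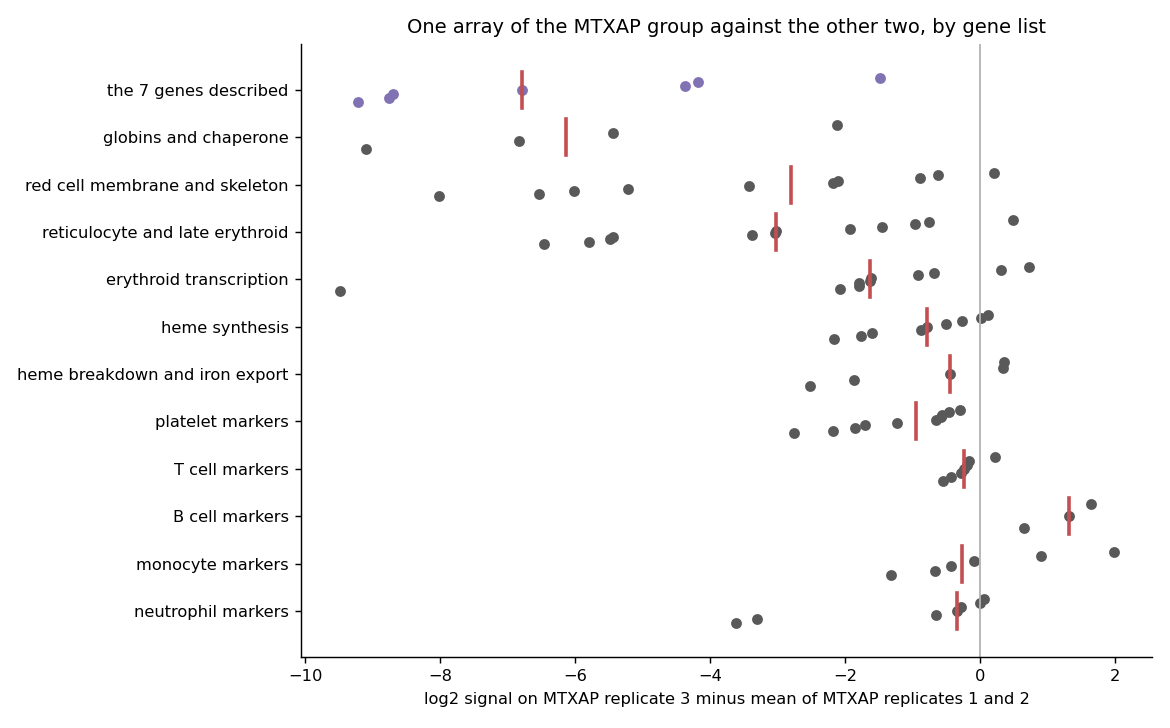
Each point is 1 gene, placed by its log2 signal on MTXAP replicate 3 minus the mean of MTXAP replicates 1 and 2; red bars are list medians. The 7 genes and the globins lie farthest to the left, with medians of -6.79 and -6.14, while T cell, monocyte and neutrophil medians lie between -0.34 and -0.23, with single neutrophil markers down to -3.62.

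No gene of the list passed the test in any of the 6 comparisons of groups, nor in the test of whether the change from RA to AP differed from that of NORA to HAP. The test was limma on log2 signals with Benjamini-Hochberg adjustment over all 18515 probe sets, and it called 0 of them in each comparison, a background of 0%. At an unadjusted p under 0.05 Rhag alone of the list passed, for RA minus NORA with 8.47% of all probe sets, for AP minus RA with 7.83%, for HAP minus NORA with 6.18% and for the difference of changes with 13.1%. In the same 4 tests it also passed the thresholds of the study's methods, an unadjusted p under 0.05 with a fold change over 2, which 4.68%, 3.62%, 2.3% and 10.2% of all probe sets passed in that order.

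The first comparison asks what arthritis did before therapy. All 7 genes had lower means in RA than in NORA, with a median log2 fold change of -1.28 against 0.07 over all probe sets, of which 44.5% were below 0. Apart from Rhag their folds ran from -0.23 ± 0.95 (SE) for Hbb to -1.43 ± 1.65 for Fech. Without the 2 arrays that stood apart, of which NORA replicate 3 enters here, the median was -0.29, and Hbb had a fold of 0.057 ± 0.23. Rhag had the only arrays that did not overlap between the 2 groups, where 21% of all probe sets did not. Its fold was -1.73 ± 0.65 (limma adjusted p = 0.583), and without those arrays it was -1.26 ± 0.55 (limma adjusted p = 0.971).

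The second asks how arthritic rats differed after acupuncture. In AP minus RA, which neither outlying array enters other than through the shared spread, 6 of 7 genes had higher means, with a median of 0.68 against -0.01 over all probe sets, of which 49.2% were above 0. Alas2 had 0.35 ± 2.09, Fech 0.68 ± 1.65, Slc4a1 0.78 ± 2.20, Epb42 0.49 ± 2.08 and Klf1 0.71 ± 1.26, and in each the AP and RA arrays overlapped. With the 2 arrays that stood apart left out, these folds were the same, with standard errors of 0.59 for Klf1 to 0.72 for Alas2. Without RA replicate 1 the folds of those 5 genes were below 0, from -0.53 for Alas2 to -0.066 for Epb42. Rhag and Hbb had arrays that did not overlap, which held for 35.9% of all probe sets, and their folds had opposite signs. Rhag had 1.55 ± 0.65 (limma adjusted p = 0.616), and Hbb had -0.20 ± 0.95 (limma adjusted p = 0.954).

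Further comparisons concern methotrexate given with acupuncture. In MTXAP minus RA the median was -1.16 with 1 of 7 genes above 0, against 48.1% of all probe sets, and without the 2 arrays that stood apart it was 1.23 with all 7 folds above 0. Epb42 turned from -1.16 ± 2.08 to 1.74 ± 0.66 (limma adjusted p = 0.396), and Slc4a1 from -1.34 ± 2.20 to 1.73 ± 0.78. The dimmer Slc4a1 probe set was already above 0 over all arrays, at 0.22 ± 1.37. In MTXAP minus AP all 7 folds were below 0, as were 50.6% of all probe sets, with a median of -1.65. Slc4a1 had -2.12 ± 1.97 there, and its dimmer probe set -0.32 ± 1.22. Without the 2 arrays that stood apart the median of the 7 genes was 0.55, and Rhag, at -0.48 ± 0.50, was the only one still below 0. The mean of the other two MTXAP arrays was thus above the AP mean for Alas2, Fech, Slc4a1, Epb42, Hbb and Klf1, and the direction of these folds rested on MTXAP replicate 3.

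In HAP minus NORA, healthy rats after and before the stimulation, 6 of 7 folds were below 0, as were 40.4% of all probe sets, with a median of -0.75. Without the 2 arrays that stood apart the median was 0.18. Rhag had -1.44 ± 0.58 (limma adjusted p = 0.747), and -0.96 ± 0.50 without those arrays. In AP minus HAP, arthritic against healthy rats after the same therapy, 5 of 7 folds were above 0, as were 44.6% of all probe sets, and the median was 0.10. The folds of Alas2, Fech, Slc4a1, Epb42 and Klf1 lay between -0.12 and 0.12, with standard errors of 1.12 to 1.97, so differences of severalfold would not have been detectable in that fit. The 2 arrays that stood apart enter these standard errors only through the shared spread. Without them the folds were the same, with standard errors of 0.53 for Klf1 to 0.65 for Alas2. The dimmer Slc4a1 probe set had -0.48 ± 1.22 over all arrays. Rhag and Hbb again had arrays that did not overlap, against 17.9% of all probe sets. Rhag had 1.26 ± 0.58 (limma adjusted p = 0.81) and Hbb -0.46 ± 0.85 (limma adjusted p = 0.918).

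**Figure D3:**
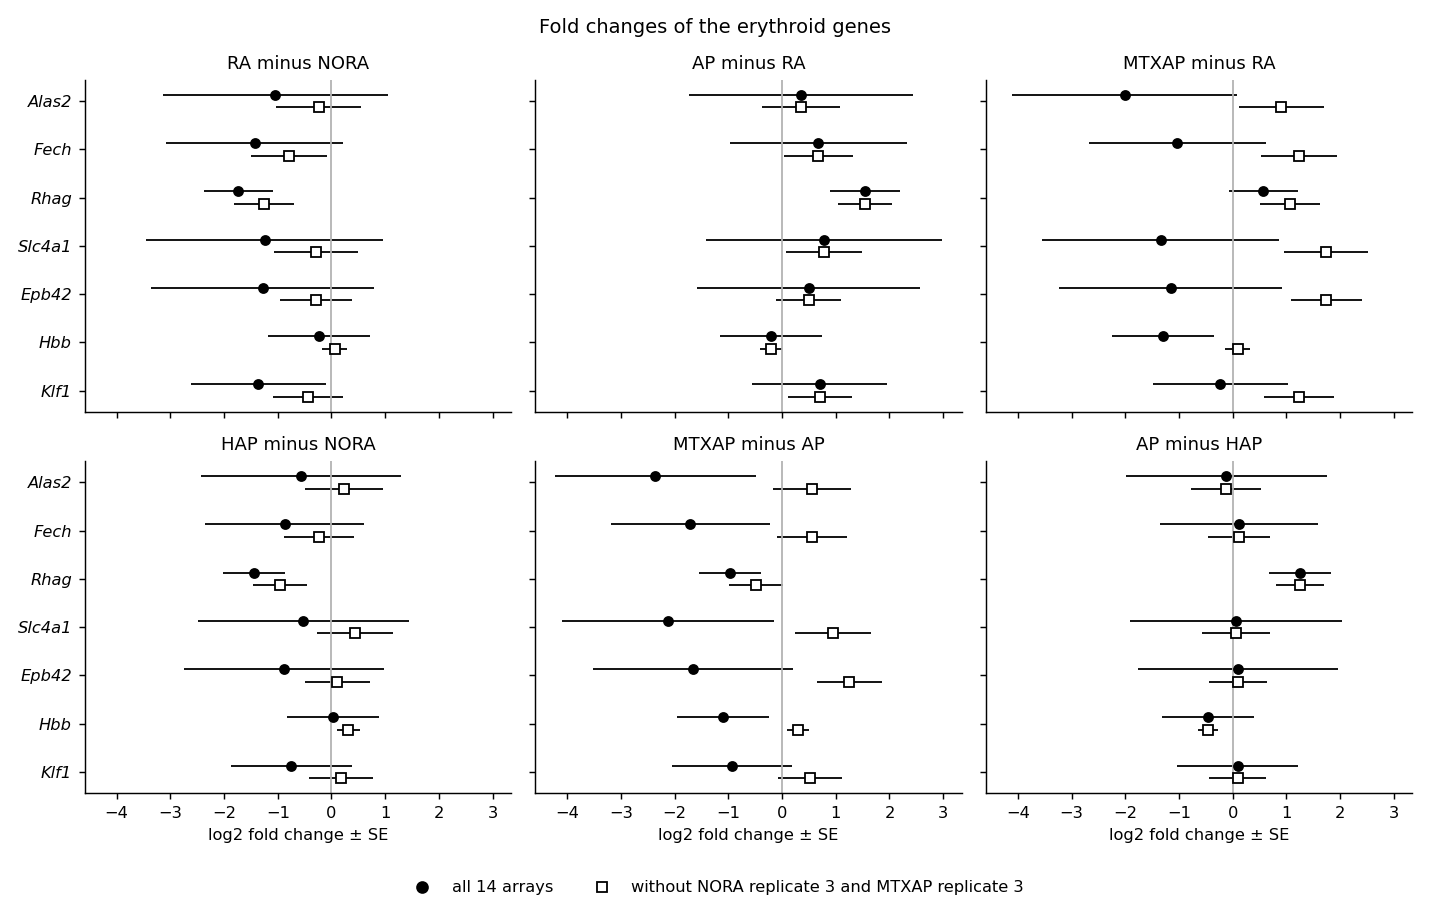
Log2 fold change with its standard error for the 7 genes in the 6 comparisons, from limma on all 14 arrays (filled circles) and without NORA replicate 3 and MTXAP replicate 3 (open squares). In MTXAP minus RA and MTXAP minus AP the filled and open markers lie on opposite sides of 0 for all genes other than Rhag.

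The difference of the changes, AP minus RA less HAP minus NORA, was 2.99 ± 0.87 for Rhag (limma adjusted p = 0.36) and 2.51 ± 0.71 without the 2 arrays that stood apart (limma adjusted p = 0.501). The other 6 genes had values of -0.23 ± 1.28 for Hbb to 1.55 ± 2.22 for Fech over all arrays, and of -0.52 ± 0.29 for Hbb to 0.91 ± 0.92 for Fech without those arrays. The median of the 7 was 1.38 over all arrays and 0.39 without them. Epb42 went from 1.38 to 0.39 and Alas2 from 0.92 to 0.12. In order of group means Rhag stood at 9.57 ± 1.23 (SD, n = 3) in NORA, 9.38 ± 0.51 (n = 3) in AP, 8.41 ± 0.94 (n = 3) in MTXAP, 8.13 ± 0.30 (n = 3) in HAP and 7.84 ± 0.20 (n = 2) in RA. Over all 14 arrays each neighbouring pair of groups in that order overlapped. Without the 2 arrays that stood apart the means were 9.09 in NORA and 8.90 in MTXAP, so that AP stood highest.

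Rhag had a higher r with the platelet markers than with the rest of the list. With the 2 outlying arrays left out, the r of Rhag was 0.87 with the mean of the 10 platelet markers and 0.03 with the mean of the other 6 genes. Alas2, Fech, Slc4a1, Epb42 and Klf1 had 0.84 to 0.96 with the mean of the rest of the list and -0.01 to 0.34 with the platelet markers. Hbb had 0.04 and -0.45. The platelet list was not uniform, with each marker set against the mean of the other markers. Pf4, a platelet chemokine, had 0.92 with the 7 genes and 0.40 with the platelet mean, Tubb1, the beta tubulin of platelets, had 0.77 and 0.81, and the other 8 markers had 0.92 or more with the platelet mean. These are correlations over 12 arrays that share their scaling and their groups, given as a description.

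Other genes of the red cell programme differed in which of the 2 means they were nearer. Of the 10 genes of erythroid transcription 7 had a higher r with the platelet markers than with the 7 genes, but not all of these were close to either. Nfe2, the subunit of a factor that serves both globin genes and platelet formation, had 0.97 with platelets and 0.30 with the 7 genes. Tal1, needed in both lineages, had 0.98 and 0.24. Gata1, which drives both lineages, had 0.94 and 0.52, and Gfi1b, a repressor used by both, had 0.90 and 0.38. Lmo2, a bridging protein of the complex that holds Gata1 and Tal1, had 0.18 and 0.07, and Bcl11a, a repressor of globin genes, had 0.16 and -0.21. Hemgn had 0.33 and 0.95. Of the 12 reticulocyte and late erythroid genes 11 were nearer the 7 genes, among them Prdx2 (0.94), a red cell peroxidase, Bpgm (0.97), which makes the phosphate that lowers the oxygen affinity of hemoglobin, Bnip3l (0.97), needed to clear mitochondria, and Mkrn1 (0.93). Epor, the erythropoietin receptor, was the one nearer the platelet markers, with 0.88 against 0.31. Of 10 membrane genes 8 were nearer the 7 genes, and Xk and Gypc were not. Nearer the 7 genes were also 6 of the 9 other heme synthesis genes and 3 of the 4 other globin genes, but 1 of the 5 genes of heme breakdown and iron export. Gata1, Gfi1b, Bcl11a, Epor and Xk were picked for mention after their values had been seen.

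**Figure D4:**
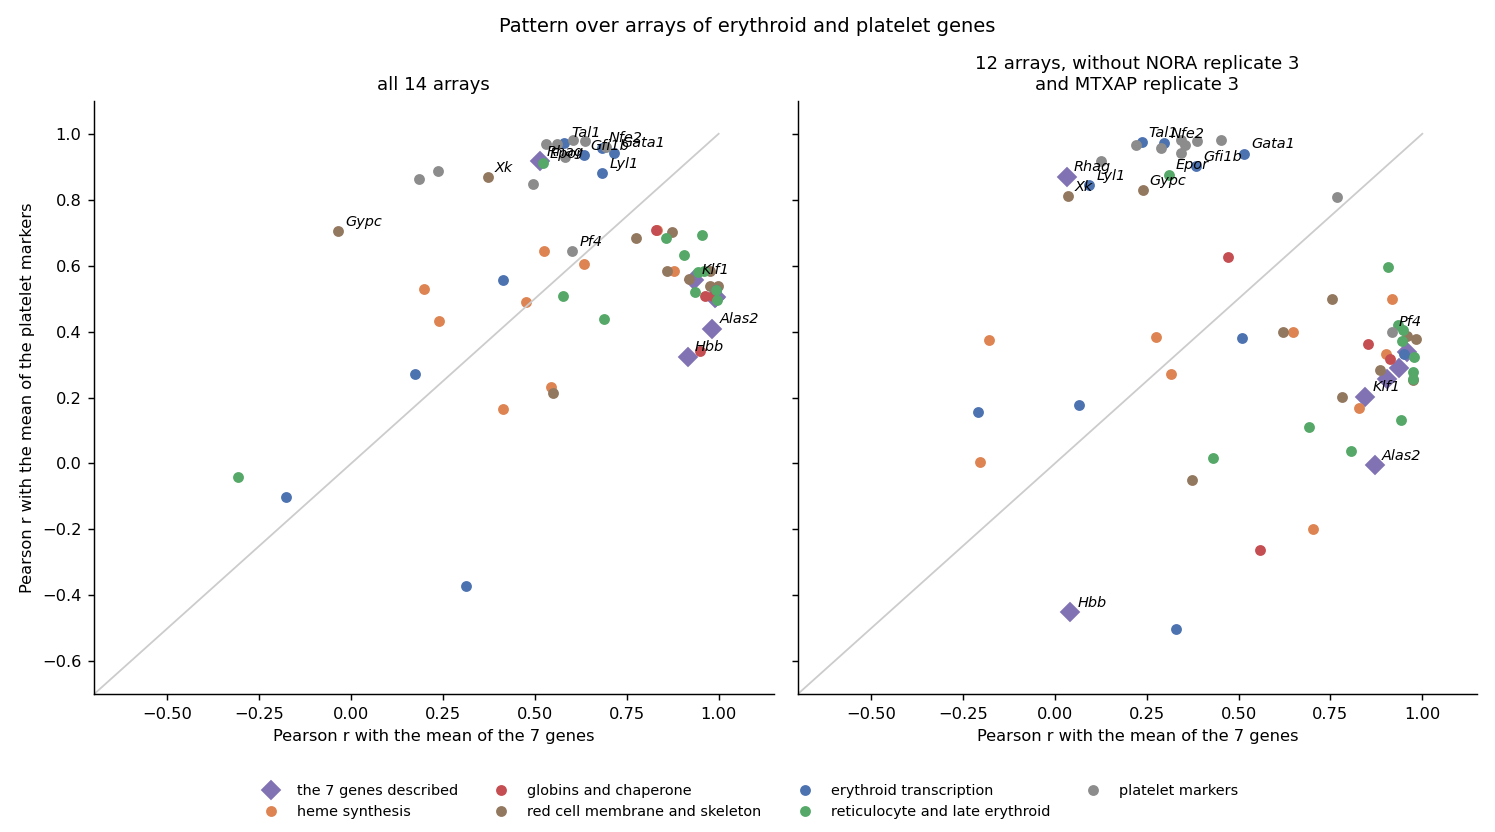
Pearson r of each gene with the mean of the 7 genes (horizontal) and with the mean of the platelet markers (vertical). The left panel holds all 14 arrays and the right panel 12 arrays. A gene is left out of any mean it belongs to, the grey line marks equal r, and colours give the list. On the right Rhag lies with Tal1, Nfe2, Gata1, Gfi1b and Epor among the platelet markers, while Alas2 and Klf1 lie at high r with the 7 genes, as does 1 of the platelet markers, Pf4.

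Platelets often stay with the mononuclear layer of a gradient, and all 10 markers were above the array median on every array. The mean of the 10 markers, centred on its mean over all arrays, ran from -0.64 to 1.34 in NORA, was -1.14 and -0.60 in RA, and ran from -0.45 to -0.09 in HAP, from -0.05 to 0.57 in AP and from -0.74 to 0.56 in MTXAP. Their summed signal was 99869 to 413362 over the 14 arrays. All 10 had lower means in RA than in NORA (median -1.45, and -1.04 without the 2 arrays that stood apart) and higher means in AP than in RA (median 1.26), and none was called by limma. Past the thresholds of the study's methods were 5 of them, lower in RA than NORA, where 3.83% of all probe sets were, and 4, higher in AP than RA, where 2.57% were. Rhag followed them in both comparisons, and the part of platelet RNA in its signal was not tested. The mean of the 7 genes had r of 0.53 with the platelet mean over 14 arrays and 0.37 over 12.

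The wider red cell lists were counted in the same way. No gene of any list was called by limma in any comparison. In RA minus NORA 10 of 10 membrane genes, 12 of 12 late erythroid genes, 4 of 4 other globins and 8 of 9 other heme synthesis genes had lower means, with medians of -1.36, -1.16, -1.20 and -0.38, and without the 2 arrays that stood apart these were -0.41, -0.48, -0.42 and 0.04. Of 10 transcription genes 9 had lower means, with a median of -1.41, and -0.70 without those arrays. In AP minus RA 10 of 10 membrane genes and 12 of 12 late erythroid genes had higher means, with medians of 0.83 and 0.68. Higher too were 9 of 10 transcription genes and 8 of 9 heme synthesis genes, with medians of 1.23 and 0.45. Of the other globins 3 of 4 were higher, with a median of 0.92. Of the 5 genes of heme breakdown and iron export 3 were above 0 in the first and 4 in the second. Past the thresholds of the study's methods were 4 of 10 transcription genes, lower in RA than NORA, against the same 3.83% of all probe sets. These were Gata1, Tal1, Nfe2 and Gfi1b. Over 12 arrays their r was 0.90 to 0.98 with the platelet markers and 0.24 to 0.52 with the fixed list. So were Gypc and Xk of 10 membrane genes and Epor of 12 late erythroid genes. Hbe1 of 4 other globins and Uros of 9 heme synthesis genes also passed. Of these, only Uros was nearer the fixed list than the platelet markers, but close to neither, with 0.31 against 0.27. Its log2 signals in RA, 6.03 and 4.17, were under the array medians of 6.70 and 6.79. Past the same thresholds, higher in AP than RA, were 2 of 10 transcription genes (Gfi1b and Bcl11a), Epor and Uros, against 2.57%. Because both comparisons share the RA arrays, opposite directions in them are not separate results. Centred on its mean over all arrays, the membrane list averaged -1.02 and 0.07 in RA, and 0.30, 0.94 and -0.42 in AP. The late erythroid list averaged -1.04 and 0.006 in RA, and 0.46, 0.91 and -0.61 in AP. For both lists RA replicate 2 lay within the range of the AP arrays, and only RA replicate 1 lay below it.

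Among 10100 genes compared over 14 arrays, those whose pattern was most like the mean of the 7 were Add2 (r = 0.998), a subunit of adducin in the membrane skeleton, Bpgm (0.996), Cd52 (0.994), Hemgn (0.994), Car2 (0.994), a carbonic anhydrase abundant in red cells, Ybx3 (0.991), Paqr9 (0.984), Ahsp (0.983), Myo5c (0.981) and Rsad2 (0.981). Over the 12 arrays without the 2 that stood apart their r ran from 0.85 for Ahsp to 0.98 for Add2. For Rhag taken alone, a listing added after its values had been seen, the most alike were Gucy1b1 (0.978), a subunit of soluble guanylate cyclase, and Epor (0.967), and next came Kctd12, Rgs18 and Aig1.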

How the data were processed

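PBMC RNA was labelled and hybridised to Affymetrix Rat230 2.0 arrays, 1 per sample. The values deposited by the authors are linear signal intensities made with MAS5 (the affy package), each array scaled so that its mean without the top and bottom 2% is 500. From these intensities log2 values were taken here, only probe sets brighter than the median of their array in 2 or more of the 14 arrays were kept, and limma 3.58.1 in R 4.3.3 was fitted with 1 mean per group over all arrays, two-sided, with Benjamini-Hochberg adjustment over all 18515 probe sets and a threshold of 0.05. The fit was tested on simulated data. The number of arrays limits the precision.

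Symbols came from the platform annotation: 20826 probe sets had 1 symbol, 436 several and 9780 none. A pair of further beta-globin probe sets with several symbols was left out. RA holds 2 arrays, although the series text speaks of 3 for each group. Groups follow the titles, and no correlations between arrays carry a p.

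The 7 genes, the 11 comparison lists and the tests were chosen with earlier results of these data known. All probe sets of the 7 genes were described, up to 4 genes of a list were named by highest mean signal, and the 10 genes with the highest Pearson r with the mean centred signal of the 7 were named. Alternatives were quantile normalization, array median centring, no filter, a stricter filter, a pseudocount of 16, array weights, no moderation, a fit on the compared groups only, a replicate block, the methods' thresholds, leaving out each array, and leaving out both arrays that stood apart.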

Additional observations from a re-analysis of the deposited data

How the results depend on the processing

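No alternative changed the call of any of the 7 genes other than Rhag, and the direction of most folds was not fixed by these arrays. Of the folds under the alternatives other than leaving out single arrays, 500 kept their direction and their side of the threshold, 6 newly passed it and 33 turned direction. The count of the 7 genes called, 0 in the report, came to 1 (Rhag) with array weights in RA minus NORA (adjusted p = 0.0333, 765 probe sets called in all) and in the difference of the changes (adjusted p = 0.0182, 1651 in all), where it was also 1 without NORA replicate 1 (adjusted p = 0.0248, 980 in all), so the counts over single arrays left out ran from 0 to 1. It was likewise 1 at the methods' thresholds in RA minus NORA, AP minus RA, HAP minus NORA and the difference of the changes, where 866, 670, 426 and 1886 probe sets passed, and stayed 0 in MTXAP minus RA, MTXAP minus AP and AP minus HAP, where 423, 833 and 347 did. Over all 18515 probe sets, leaving out NORA replicate 1 gave 168 calls in RA minus NORA, and the alternatives not named here gave at most 15 in any comparison. Folds that turned direction without the 2 arrays that stood apart read, in RA minus NORA for Hbb 0.057, in MTXAP minus RA for Alas2 0.91, Fech 1.23, Slc4a1 1.73, Epb42 1.74, Hbb 0.093 and Klf1 1.23, in HAP minus NORA for Alas2 0.24, Slc4a1 0.43, Epb42 0.11 and Klf1 0.18 and in MTXAP minus AP for Alas2 0.56, Fech 0.55, Slc4a1 0.95, Epb42 1.25, Hbb 0.30 and Klf1 0.53. With array weights they read, in RA minus NORA for Alas2 0.025 and Hbb 0.15, in MTXAP minus RA for Fech 0.058, Slc4a1 0.14, Epb42 0.24 and Klf1 0.47, in HAP minus NORA for Alas2 0.55, Slc4a1 0.43, Epb42 0.23 and Klf1 0.30 and in AP minus HAP for Alas2 0.14. With quantile normalization they read, in RA minus NORA for Hbb 0.15 and in AP minus HAP for Slc4a1 -0.027. With the replicate number as a block, a replicate block that changed no call, they read, in AP minus RA for Hbb 0.10, in MTXAP minus RA for Klf1 0.044 and in the difference of the changes for Hbb 0.079. Deviations of same-numbered arrays from their group means had r of -0.42 to 0.37 (median 0.055), against -0.30 to 0.39 (median -0.04) for different numbers. Not every array was closest to one of its own number. Deviations within groups of 2 or 3 arrays are tied to one another, so this check showed no pairs but could not exclude them. Leaving out 1 array at a time turned 40 values. Of these, 12 came without MTXAP replicate 3 and 5 without NORA replicate 3, and they repeat turns given above for leaving out both. The folds turned by leaving out 1 array ran between these limits. In RA minus NORA they were Hbb -0.50 to 0.057. In AP minus RA they were Alas2 -0.53 to 1.24, Fech -0.34 to 1.70, Slc4a1 -0.31 to 1.87, Epb42 -0.066 to 1.09 and Klf1 -0.18 to 1.59. In MTXAP minus RA they were Alas2 -3.51 to 0.91, Fech -2.26 to 1.23, Slc4a1 -3.04 to 1.73, Epb42 -2.75 to 1.74, Hbb -2.07 to 0.093 and Klf1 -1.13 to 1.23. In HAP minus NORA they were Alas2 -1.29 to 0.24, Slc4a1 -1.12 to 0.43, Epb42 -1.60 to 0.11, Hbb -0.24 to 0.32 and Klf1 -1.47 to 0.18. In MTXAP minus AP they were Alas2 -3.86 to 0.56, Fech -2.93 to 0.55, Slc4a1 -3.83 to 0.95, Epb42 -3.25 to 1.25, Hbb -1.86 to 0.30 and Klf1 -1.84 to 0.53. In AP minus HAP they were Alas2 -0.57 to 0.59, Fech -0.22 to 0.63, Slc4a1 -0.46 to 0.62, Epb42 -0.33 to 0.69 and Klf1 -0.22 to 0.58. In the difference of the changes they were Hbb -0.52 to 0.035. The cause of these turns was not tested. In the fit on all arrays, with 2 or 3 arrays a group, standard errors were above 1 for most of the 7 genes. Only large changes could have been called there. Without the 2 arrays that stood apart, standard errors in the comparisons of 2 groups ran from 0.19 for Hbb in AP minus HAP to 0.79 for Alas2 in RA minus NORA. None of the 7 genes was called in that fit either. Signals near the floor or near the top of the scale also limit what a fold can show.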
